A study of Homo sapiens with 27 samples.

Results

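The 34 genes described here encode the standard subunits of the proteasome. They are the rows of the expression table whose symbols are PSMA, PSMB, PSMC or PSMD followed by a number, which gave 37 of 13523 genes, less PSMB8, PSMB9 and PSMB10, the interferon-inducible subunits, which left 34. Of these, 14 belong to the core particle (7 PSMA and 7 PSMB genes) and 20 to the regulatory particle (6 PSMC and 14 PSMD genes). PSMA8 and PSMB11 had no row in the table. The RNA came from 501mel, an established human melanoma cell line with high MITF, and was sequenced from the 3′ ends of polyadenylated transcripts, so that each read stands for 1 transcript end and levels need no correction for length. The study asked whether the related transcription factors MITF, TFEB and TFE3 have distinct roles in melanoma. Of the cells sequenced here, only unedited ones were starved, while Torin was given to every genotype. The 9 groups were labelled with 3 libraries each. Unedited (WT) cells were non-treated, kept in HBSS for 12 h, a balanced salt solution with glucose and no amino acids, or given Torin at 250 nM for 12 h, a compound that blocks the mTOR kinase. TFE3 KO, TFEB KO and double knockout (DKO) cells were each sampled as a 12 h control and after 250 nM Torin for 12 h. The WT controls carry no time in the labels. The knockouts were made with Cas9 ribonucleoprotein and grown from single clones, so that genotype and clone cannot be told apart. Nothing says that the libraries of a group came from separate cultures, so p-values measure the spread between these libraries, which may be technical.

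The proteasome is the large protease that degrades most proteins tagged with ubiquitin. Its core particle is a barrel of stacked alpha and beta rings with the protein-cutting sites inside. The regulatory particle caps the barrel. The cap holds a ring of ATPases that unfolds substrates, receptors that bind ubiquitin, and a lid with the enzyme that removes ubiquitin chains before a substrate enters. The subunits assemble in fixed ratios, and in human cells their genes are known to be driven together by NFE2L1 (also NRF1) when proteasome activity falls. TFEB and TFE3, which mTORC1 holds in the cytoplasm of fed cells, are best known for driving lysosomal and autophagy genes.

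NFE2L1 binds antioxidant response elements, and TFE3, TFEB and MITF bind E-boxes, so the promoters of the subunit genes were searched for these letters on both strands. RefSeq promoter sequences (GRCh38.p14, 250 bases before to 50 after a start) were at hand for 29 of the 34 genes, with 35 listed starts, and not for PSMA7, PSMB1, PSMB6, PSMB7 and PSMD4. The core of the antioxidant response element, TGACNNNGC, was found in 9 of these 35 promoters (25.7%), against 13.3% of all 35116 RefSeq promoters of the same length. It was in 7 of 21 promoters of regulatory subunits and in 2 of 14 of core subunits. The palindrome TCACGTGA, the site the study names for TFEB, TFE3 and MITF, was in none of the 35, against 0.98% of all promoters. The shorter E-box CACGTG, which every TCACGTGA also contains, was in 2 of 35 (5.71%) against 7.26% of all promoters. These matches describe the letters in the windows and do not show binding. In the list below PSMD5 and PSMD12 are put first because they were among the subunits that fell most in HBSS. PSMA3 also fell by at least 2-fold in HBSS and had no match, and PSMB3 had matches and was not called there. Whether the matches go with the falls was not tested. The following stretches, read 5′ to 3′ on the strand of the gene with the matched letters in capitals, are all those whose printed window lies wholly before a start. They hold the antioxidant response element core of PSMD5 (minus strand, chr9:120843038-120843066, 134 bases before the start), PSMD12 (minus strand, chr17:67366724-67366752, 165 bases before it), PSMB3 (plus strand, chr17:38752627-38752655, 104 bases before it), PSMD3 (plus strand, chr17:39980760-39980788, 37 bases before it), PSMD9 (plus strand, chr12:121888678-121888706, 102 bases before it, and chr12:121888631-121888659, 149 bases before it), PSMA4 (plus strand, chr15:78540650-78540678, 126 bases before a later listed start) and PSMC5 (plus strand, chr17:63827654-63827682, 57 bases before a later listed start). The second PSMD9 match and that of PSMC5 lie on the opposite strand, so that their capitals read as the reverse complement of the motif. The last 2 lines hold the E-boxes of PSMB3 (chr17:38752493-38752518) and PSMD9 (chr12:121888649-121888674).
PSMD5: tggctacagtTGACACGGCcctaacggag
PSMD12: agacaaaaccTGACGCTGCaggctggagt
PSMB3: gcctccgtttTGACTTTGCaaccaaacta
PSMD3: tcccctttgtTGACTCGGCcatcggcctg
PSMD9: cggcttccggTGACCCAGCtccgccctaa
PSMD9, second match: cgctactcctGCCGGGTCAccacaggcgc
PSMA4: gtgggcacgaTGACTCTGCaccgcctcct
PSMC5: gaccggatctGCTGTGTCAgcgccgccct
PSMB3 E-box: ttcaccagccCACGTGcgcgcaggct
PSMD9 E-box: accacaggcgCACGTGttccggcagg

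The columns labelled WT HBSS replicate 3 and WT Torin replicate 1 held the same values in all 13523 genes. The labels do not settle which treatment they hold. The shared column had 12917 genes with a read. The remaining WT HBSS libraries had 12895 and 12901, and those of WT Torin 13188 and 13181. Its values summed to 1141420, against 1088560 and 1093230 in WT HBSS and 985447 and 982925 in WT Torin. By both measures it lay nearer WT HBSS, and settings that keep it as WT Torin should be read with this. Both columns were left out, so that WT HBSS and WT Torin each have n = 2 and 25 libraries were used. These held 4147050 to 6526392 reads, and 3 reads were worth a value of 0.46 to 0.711, which is the level that a count of 0 allows (for counting error only). TFE3 averaged 24.0 ± 0.285 (SD, n = 3) in WT control, 6.3 ± 1.27 in TFE3 KO control and 6.35 ± 0.47 in DKO control. TFEB was low in untreated cells, with 3.25 ± 0.827 in WT control and 1.11 ± 0.485 in TFEB KO control, and was also low in TFE3 KO control (0.681 ± 0.764, n = 3 each), so that it checks the TFEB KO label only weakly. All 7 melanocyte markers were present (123 to 4463.9 across the libraries), and of 15 markers of fibroblasts, keratinocytes, leukocytes and endothelial cells only COL1A1 and LUM had a row, at values between 0 and 5.06.

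All 34 genes passed the filter on low values, and their levels in WT control spanned a wide range. PSMA7 (chromosome 20, 62136733 to 62143440, an alpha-ring subunit) stood far above the rest with a normalised value of 1530.6 ± 141 (SD, n = 3), which was 15.6% of the summed level of all 34 subunits. PSMB1 and PSMB4 of the beta ring followed at 616 ± 52.2 and 608 ± 42.7, and their libraries overlapped. The ATPase PSMC4 (536 ± 23) and the base scaffold PSMD1 (535 ± 50.7) were the highest of the regulatory particle. The lowest were PSMC6 (45 ± 3.05) and the assembly chaperones PSMD5 (29.2 ± 1.98) and PSMD10 (16.6 ± 2.43), which help to build the cap but are absent from the finished complex. In this order, 24 of the 33 pairs of neighbours overlapped in their WT control libraries, so that most of the ranks between these extremes are not resolved. PSMC1 has 13 pseudogenes by name and PSMA6 has 4, whose reads the counting could have shared. PSMA3, PSMC1, PSMC2, PSMC5, PSMD1 and PSMD6 overlap a gene on the other strand, and how the authors' counting used strand is not given in the sources used here.

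**Figure D1:**
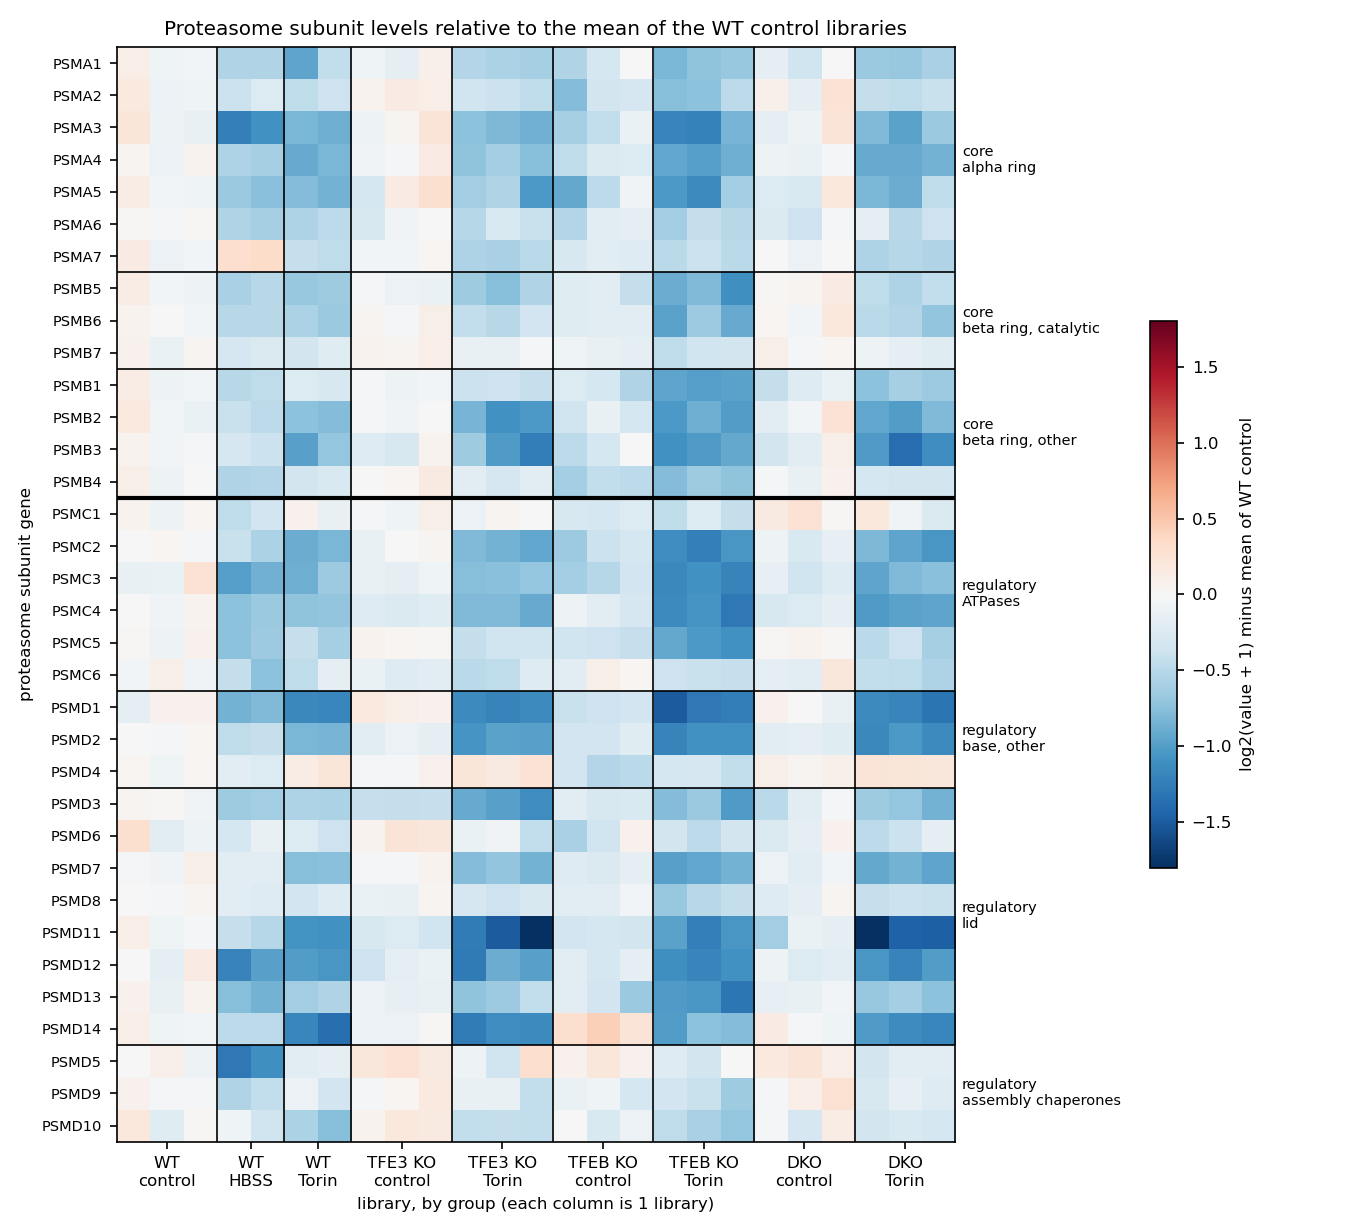
Each row is a subunit gene, grouped by its place in the proteasome, and each column is 1 of the 25 libraries, grouped by genotype and treatment. The colour is log2(value + 1) minus the mean of the WT control libraries. The HBSS and Torin columns are blue in nearly every row, with the red PSMA7 row in HBSS and the pale or red PSMD4 row in Torin as the clearest exceptions.

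Incubation in HBSS lowered most of the proteasome. Of the 34 subunits, 30 fell, 1 rose (PSMA7) and 3 were not called (PSMB3, PSMD6 and PSMD10) in limma's moderated test on log2(value + 1) at a Benjamini-Hochberg adjusted p of 0.05. Of all 13052 genes tested, 24.7% were called lower and 23.6% higher in this comparison. The median log2 fold change was -0.5 over the 34 subunits, against -0.026 over all genes. Both particles took part, with 12 of 14 core subunits (median -0.52) and 18 of 20 regulatory subunits (median -0.49) lower. Without the assembly chaperones PSMD5, PSMD9 and PSMD10, 16 of 17 regulatory subunits were lower and the median stayed at -0.49. Falls of at least 2-fold were made by 3 subunits, PSMA3, PSMD12 and PSMD5, against 6.2% of all genes. These are bulk libraries, in which fewer cells that express a gene and less RNA per cell cannot be told apart. With the edgeR quasi-likelihood test on the recovered reads, 28 subunits were lower and PSMD7 and PSMD8 lost their calls. With the duplicated column kept as WT Torin, 27 were lower and 0 higher. All 7 melanocyte markers rose in HBSS (log2 fold changes of 0.83 to 2.47) and 4 of 7 in WT Torin, where 1 fell. Over all genes 20.5% were called higher and 23.4% lower in WT Torin. The part of the markers in the results was not tested.

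The catalytic subunits of the beta ring all fell in HBSS. PSMB5 (chromosome 14, 23016543 to 23035230), which carries the chymotrypsin-like site, had normalised values of 341, 300 and 292 in the WT control libraries and of 206 and 219 in HBSS. The groups were well separated, with a log2 fold change of -0.55 ± 0.09 (SE, limma, adjusted p = 1.32e-06). PSMB6 (chromosome 17, 4796144 to 4798502), with the caspase-like site, had 223, 212 and 206 in WT control and 150 and 151 in HBSS, a change of -0.5 ± 0.09 (limma, adjusted p = 9.45e-06). PSMB7 (chromosome 9, 124353465 to 124415444), with the trypsin-like site, changed least of the 3. It had 523, 460 and 513 in WT control against 403 and 416 in HBSS, a log2 fold change of -0.28 ± 0.07 (limma, adjusted p = 0.00125).

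The alpha ring, which gates the barrel, held both extremes of the core particle. PSMA7 had 1689.2, 1420.4 and 1482.2 in WT control and rose to 1879.6 and 1927 in HBSS, above every control library (log2 fold change 0.32 ± 0.07, limma, adjusted p = 9.34e-05). This is the direction of no other subunit. The call was lost with the duplicated column kept as WT Torin, the change staying at 0.32. PSMA3 (chromosome 14, 58244843 to 58272012) went the other way, from 126, 102 and 98.6 to 45.6 and 50.2, and its groups did not come near each other (-1.16 ± 0.13, limma, adjusted p = 8.4e-10). The antisense gene PSMA3-AS1 overlaps it. The other 5 alpha subunits fell by 0.32 (PSMA2) to 0.72 (PSMA5) on the log2 scale. The calls of PSMA2 and PSMA5 were lost when single libraries were left out.

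In the regulatory particle, the ATPase ring fell as a whole, with all 6 PSMC genes called and a median of -0.64, from PSMC1 (-0.41 ± 0.1) to PSMC3 (-0.93 ± 0.11). PSMD12 (chromosome 17, 67337916 to 67366605), a scaffold of the lid, dropped from 95.3, 84.9 and 105 to 40.7 and 47.3 (-1.09 ± 0.12, limma, adjusted p = 6.31e-11). The chaperone PSMD5 (chromosome 9, 120815496 to 120842951) had the largest fall of all 34, from 29.1, 31.3 and 27.3 to 11.3 and 13 (-1.2 ± 0.15, limma, adjusted p = 2.99e-09). Its level was the lowest but that of PSMD10, and counting error weighs more on low levels. The lid subunit PSMD7 (chromosome 16, 74296814 to 74306288) moved least among the called, from 332, 323 and 363 to 297 and 294 (-0.2 ± 0.08, limma, adjusted p = 0.0319), and the call depended on the method, as described above. PSMD14 (chromosome 2, 161308425 to 161411717), the deubiquitinase of the lid, had 339, 296 and 300 in WT control and 223 and 224 in HBSS (-0.48 ± 0.09, limma, adjusted p = 1.65e-05).

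Torin also lowered most subunits in WT cells, with a different profile over the genes. In WT Torin against WT control, 28 subunits fell, 1 rose (PSMD4) and 5 were not called (PSMC1, PSMC6, PSMD5, PSMD6 and PSMD9). Over all genes, 23.4% were called lower and 20.5% higher. The median was -0.64 over the 34 subunits and 0.001 over all genes. All 14 core subunits fell (median -0.64), as did 14 of 20 regulatory subunits (median -0.63). Without the assembly chaperones PSMD5, PSMD9 and PSMD10, 13 of 17 regulatory subunits fell and the median was -0.72. The spread was wider in the regulatory particle, from -1.27 to 0.18, than in the core, from -0.87 to -0.26. At least 2-fold falls were made by 4 regulatory subunits (PSMD14, PSMD1, PSMD11 and PSMD12), against 4.0% of all genes. This comparison shares its control libraries with that of HBSS, so that the 2 sets of calls are not independent.

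PSMD14 had the largest fall in WT Torin. From its WT control values of 339, 296 and 300 it fell to 137 and 121 in WT Torin, and no library of either group lay near the other (-1.27 ± 0.09, limma, adjusted p = 3.13e-16). PSMD1 (chromosome 2, 231056845 to 231173116), the large scaffold of the base, fell from 476, 564 and 564 to 237 and 235 (-1.17 ± 0.08, limma, adjusted p = 2.38e-16), and had 295 and 306 in HBSS. PSMD11 (chromosome 17, 32444379 to 32483319), a lid scaffold, fell from 411, 360 and 370 to 179 and 177 (-1.09 ± 0.13, limma, adjusted p = 3.25e-07), and had 284 and 266 in HBSS. PSMD12 had 46.6 and 45.3 in WT Torin (-1.03 ± 0.12, limma, adjusted p = 5.62e-10), close to its HBSS values. PSMD7, which barely moved in HBSS, had 199 and 201 in WT Torin (-0.76 ± 0.08).

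PSMD4 (chromosome 1, 151254709 to 151267479), a ubiquitin receptor of the base, did not follow the others. It had 425, 392 and 423 in WT control, 357 and 349 in HBSS, and 455 and 482 in WT Torin. The Torin libraries stood above the controls and the HBSS libraries below them (-0.23 ± 0.07, limma, adjusted p = 0.00956), a call lost without WT HBSS replicate 2. The rise in Torin was small (0.18 ± 0.07, limma, adjusted p = 0.0425) and lost its call when any of 4 single libraries (WT control 2 or 3, either WT Torin library) was left out, in the fit of the compared libraries alone, and with the duplicated column kept as WT Torin (0.09). PSMD5, the subunit with the largest fall in HBSS, had 25.3 and 25.6 in WT Torin, under the controls but not called (-0.19 ± 0.15, limma, adjusted p = 0.314).

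In the core particle, PSMA4 (chromosome 15, 78540405 to 78552417) fell most in Torin, from 378, 337 and 379 to 193 and 205 (-0.87 ± 0.08, limma, adjusted p = 2.14e-12), with 248 and 240 in HBSS. PSMB1 (chromosome 6, 170535120 to 170553307) fell least, from 675, 576 and 596 to 520 and 505 (-0.26 ± 0.08, limma, adjusted p = 0.00806), with 436 and 447 in HBSS. Its Torin call was lost in edgeR (-0.21) and without WT control replicate 1 (-0.19). PSMB5 had 192 and 198 in WT Torin (-0.67 ± 0.09), PSMB6 143 and 134 (-0.62 ± 0.09) and PSMB7 394 and 426 (-0.28 ± 0.07), so that PSMB7 again moved least of the catalytic subunits. PSMA7, which rose in HBSS, fell in Torin to 1148.2 and 1111.4 (-0.43 ± 0.07, limma, adjusted p = 6.52e-07), which became -0.13 and was not called with the duplicated column kept as WT Torin. PSMA3 had 60.5 and 58.5 (-0.85 ± 0.13). PSMB3 (chromosome 17, 38752741 to 38764225) had 87.4, 80.8 and 82.4 in WT control, 67.7 and 63.8 in HBSS, where it was not called (-0.34 ± 0.15, limma, adjusted p = 0.0515), and 42 and 51 in WT Torin, where it fell (-0.84 ± 0.15).

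**Figure D2:**
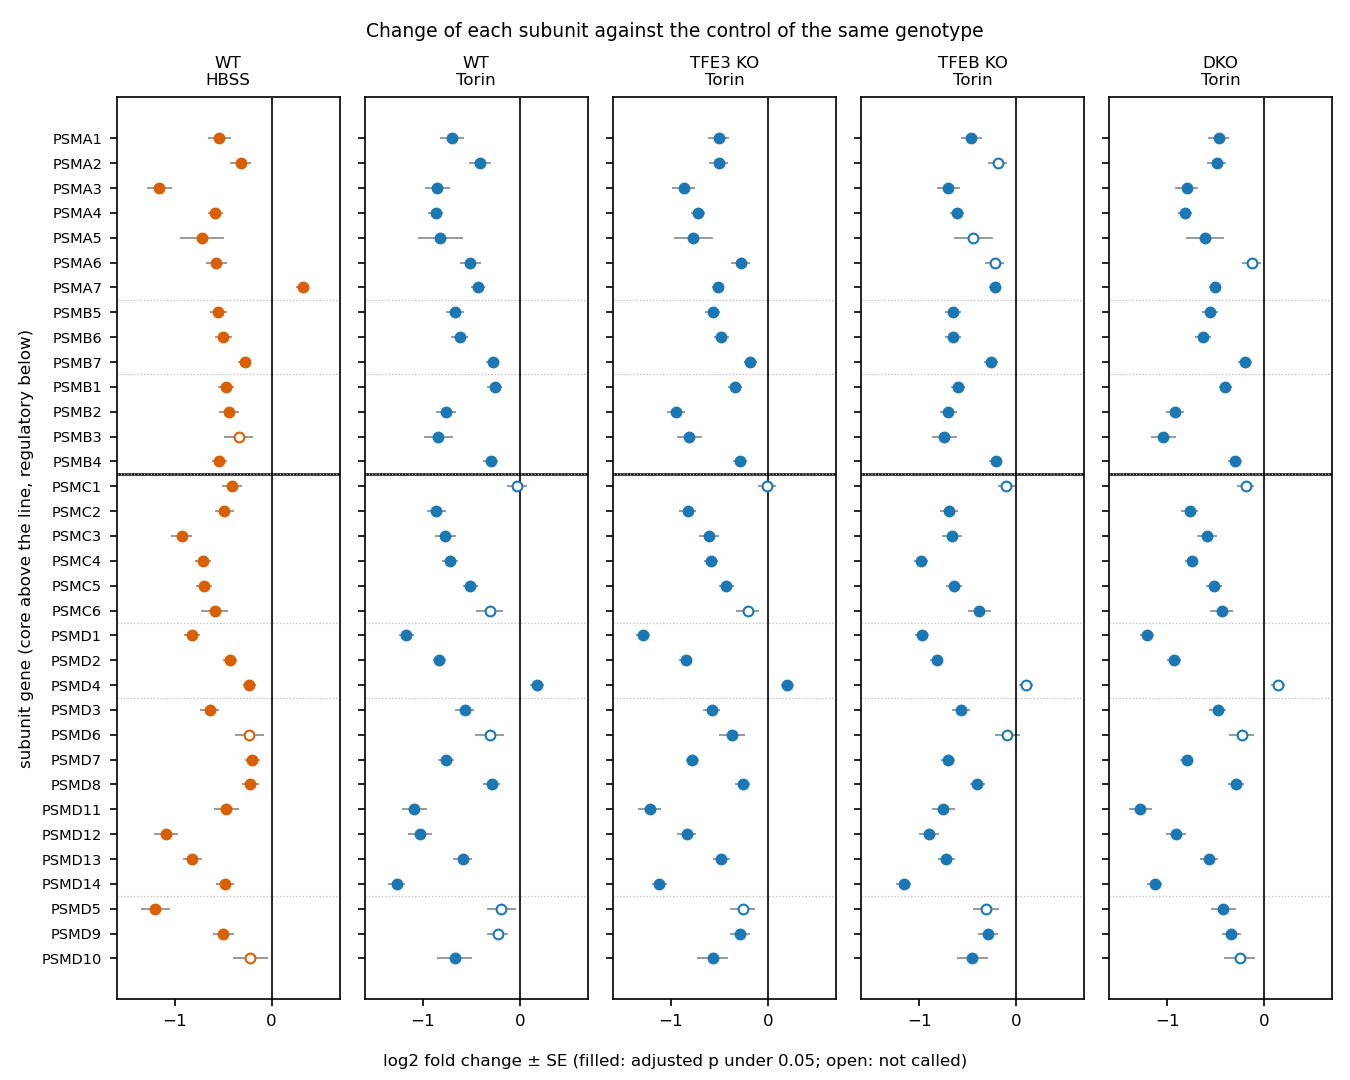
Each panel gives the log2 fold change of the 34 subunits against the control of the same genotype, with the SE as a bar and filled points for an adjusted p under 0.05. Core subunits are above the line and regulatory subunits below it. Filled points lie left of 0 except PSMA7 in HBSS (0.32) and PSMD4 in Torin in WT (0.18) and TFE3 KO cells (0.2).

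Torin acted on the subunits in every genotype. In TFE3 KO cells 30 subunits fell, 1 rose and 3 were not called (median -0.54), with 26.0% of all genes called lower and 25.4% higher. In TFEB KO cells 27 fell and 7 were not called (median -0.61), with 21.0% of all genes lower and 17.4% higher. In DKO cells 29 fell and 5 were not called (median -0.54), with 26.2% of all genes lower and 25.4% higher. With Torin the core medians were -0.52 (TFE3 KO), -0.53 (TFEB KO) and -0.54 (DKO). The regulatory medians were -0.58, -0.65 and -0.54 in that order, and -0.59, -0.69 and -0.59 without the assembly chaperones. Each comparison has its own control libraries. In all 4, WT included, 24 subunits fell, 11 of the core and 13 of the regulatory particle, where 14.2% of all genes were called lower in all 4. The 10 others were PSMA2, PSMA5, PSMA6, PSMC1, PSMC6, PSMD4, PSMD5, PSMD6, PSMD9 and PSMD10, which include all 3 assembly chaperones. PSMC1 was called in none of the 4, with changes from -0.19 in DKO to -0.01 in TFE3 KO cells.

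Falls of at least 2-fold were few in the knockouts and mostly of regulatory subunits. In TFE3 KO cells these were PSMD1, PSMD11 and PSMD14 (3 of 34, against 4.69% of all genes), in TFEB KO cells PSMD14 alone (1 of 34, against 1.65%), and in DKO cells PSMB3, PSMD1, PSMD11 and PSMD14 (4 of 34, against 4.29%). PSMD14 had 290, 289 and 316 in TFE3 KO control and 129, 142 and 140 with Torin (-1.12 ± 0.08). It had 380, 418 and 364 in TFEB KO control and 154, 185 and 180 with Torin (-1.16 ± 0.08), and 345, 307 and 294 in DKO control and 153, 141 and 137 with Torin (-1.13 ± 0.08). In each genotype the Torin libraries lay far below their controls. The changes differed from that of WT by 0.11 to 0.15 (SE 0.12 each) and no difference was called.

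PSMD1 had 601, 574 and 562 in TFE3 KO control and 240, 230 and 239 with Torin (-1.29 ± 0.07). It went from 402, 410 and 418 to 187, 217 and 223 in TFEB KO cells (-0.97 ± 0.07), and from 563, 538 and 486 to 239, 233 and 214 in DKO cells (-1.21 ± 0.07). PSMD11 went from 312, 319 and 295 to 158, 134 and 108 in TFE3 KO cells (-1.22 ± 0.12). These groups were apart in every genotype. In TFEB KO cells PSMD11 went from 300, 304 and 301 to 194, 161 and 182 (-0.75 ± 0.12), and in DKO cells from 246, 349 and 336 to 108, 137 and 136 (-1.28 ± 0.12). With a range of 0.524 over the 4 genotypes, PSMD11 was the subunit whose Torin response varied most. PSMD12 went from 72.6, 84.8 and 87.5 to 38.6, 50.3 and 47.4 in TFE3 KO cells, from 83.1, 75.9 and 83.7 to 43.6, 40.8 and 44 in TFEB KO cells, and from 88.5, 79.7 and 82 to 45.1, 40.4 and 46.8 in DKO cells, with changes of -0.84, -0.9 and -0.91.

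The catalytic subunits fell with Torin in each knockout. PSMB5 went from 302, 288 and 286 to 198, 181 and 212 in TFE3 KO cells, from 266, 273 and 229 to 166, 178 and 144 in TFEB KO cells, and from 314, 322 and 343 to 226, 210 and 227 in DKO cells. Its changes of -0.57, -0.65 and -0.56 (SE 0.08 each) lay close to that of WT. PSMB6 went from 222, 209 and 230 to 156, 151 and 168 in TFE3 KO cells (-0.48), from 184, 186 and 187 to 109, 135 and 113 in TFEB KO cells (-0.65), and from 218, 206 and 243 to 152, 148 and 130 in DKO cells (-0.63). PSMB7 was again the least changed. It went from 522, 514 and 543 to 453, 452 and 487 in TFE3 KO cells (-0.18), from 470, 454 and 445 to 363, 387 and 394 in TFEB KO cells (-0.26), and from 535, 489 and 512 to 467, 444 and 427 in DKO cells (-0.2). Its calls in TFE3 KO and DKO cells were lost in edgeR.

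The other core subunits listed by library behaved likewise. PSMA4 went from 350, 356 and 404 to 219, 237 and 214 in TFE3 KO cells, from 266, 303 and 306 to 189, 183 and 197 in TFEB KO cells, and from 342, 336 and 360 to 194, 193 and 201 in DKO cells. PSMA3 went from 101, 112 and 127 to 64.2, 61.5 and 58.7, from 71.3, 79.1 and 100 to 46.7, 45.9 and 60.3, and from 96.8, 102 and 127 to 62, 55 and 67.7 in the same order. PSMA7 went from 1476.9, 1469.2 and 1567 to 1035.8, 1018.4 and 1091, from 1251.4, 1331.4 and 1294.9 to 1084.1, 1161.7 and 1087.5, and from 1530.1, 1420 and 1530.9 to 1039.6, 1069.8 and 1042.7. No Torin library of these 3 genes reached a control library of its genotype. PSMB1 went from 606, 575 and 593 to 471, 476 and 458, from 515, 491 and 422 to 316, 309 and 313, and from 456, 524 and 565 to 368, 405 and 391. PSMB3, lower by at least 2-fold in DKO cells (-1.04 ± 0.13, limma, adjusted p = 1.26e-08), went from 70.6, 68.2 and 87 to 53.2, 40.5 and 34.7, from 59.9, 66.5 and 82.9 to 38.8, 40.5 and 43.6, and from 66.4, 73 and 90.2 to 40.6, 31.5 and 38.

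PSMD4 stayed apart from the other subunits in the knockouts. It rose from 402, 408 and 437 to 481, 464 and 493 in TFE3 KO cells (0.2 ± 0.07, limma, adjusted p = 0.00791). It was not called in TFEB KO cells, with 325, 285 and 294 in control and 332, 333 and 303 with Torin (0.1 ± 0.07), nor in DKO cells, with 444, 429 and 440 and then 487, 481 and 477 (0.14 ± 0.07, limma, adjusted p = 0.0736). In DKO cells it was called higher under median-of-ratios scaling, edgeR and DESeq2 (0.17 to 0.18). PSMD7 fell from 330, 334 and 354 to 196, 206 and 188, from 288, 283 and 299 to 171, 176 and 187, and from 316, 296 and 328 to 178, 187 and 174 in the lines in the order above. PSMD5 had 33.9, 35.3 and 32.9 and then 27.3, 22.5 and 36.2 in TFE3 KO cells, 31, 33.9 and 30.8 and then 24.7, 23.1 and 28.9 in TFEB KO cells, and 33, 34.3 and 31.9 and then 23.1, 25.4 and 25.2 in DKO cells. It was called only in the last of these (-0.42 ± 0.13, limma, adjusted p = 0.00804).

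**Figure D3:**
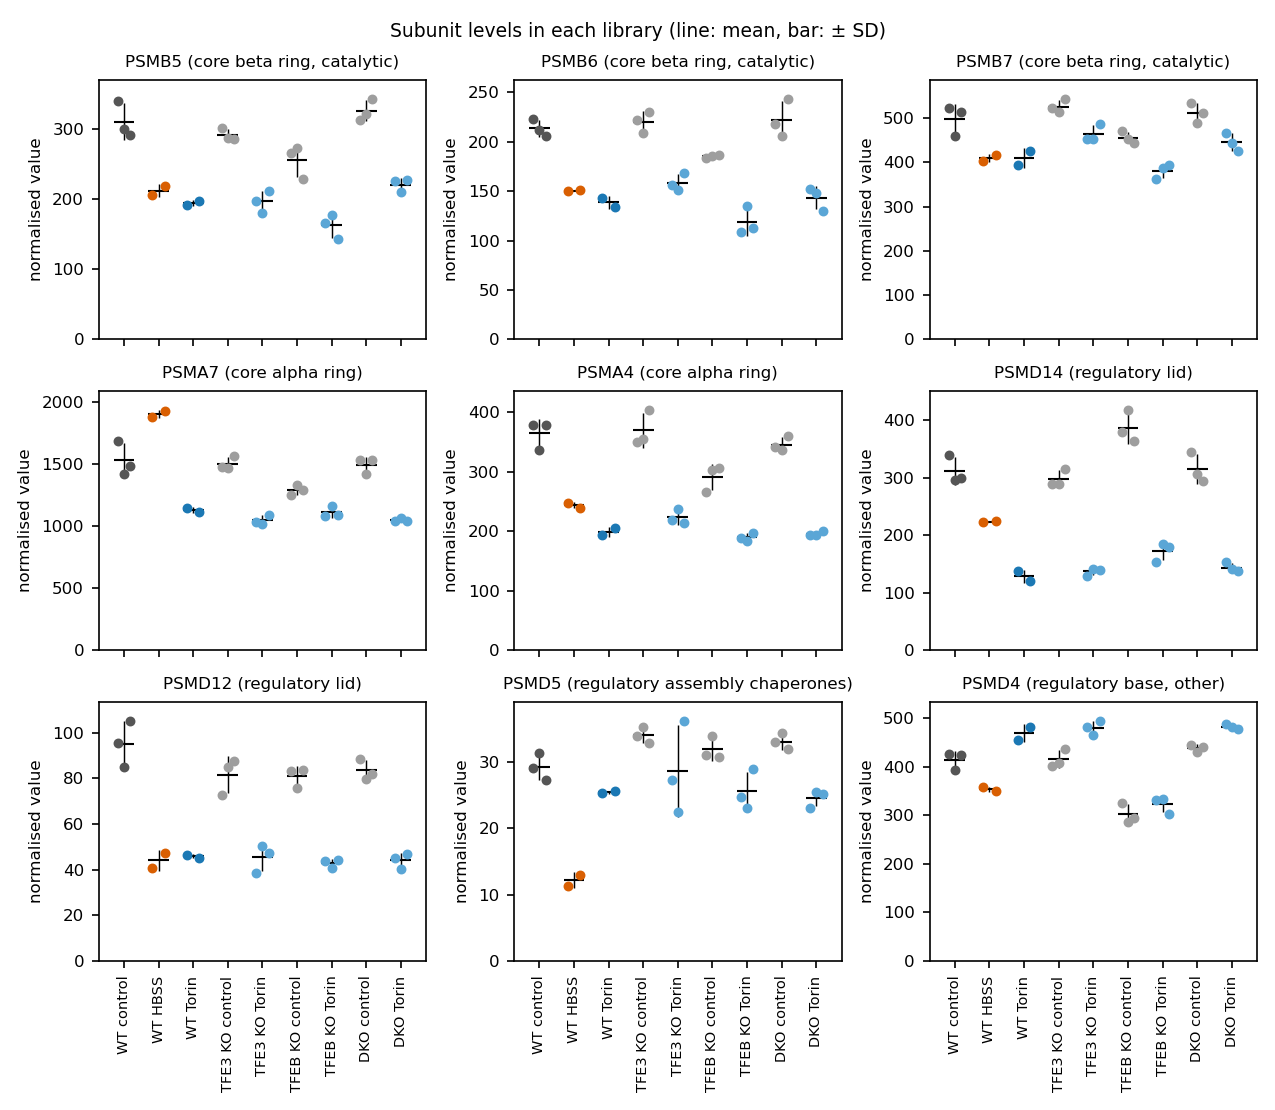
Each panel gives the normalised value of 1 subunit in every library by group, with the mean as a line and ± SD as a bar, on axes from 0. PSMB5, PSMA4, PSMD14 and PSMD12 are lower in HBSS and in every Torin group than in the matching control. PSMA7 is high in HBSS, PSMD5 is lowest in HBSS, and PSMD4 does not fall in Torin.

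No subunit had a Torin response that differed from that of WT at an adjusted p of 0.05 in any knockout. This was tested as an interaction in the same limma fit, where 1.06% of all genes were called for TFE3 KO, 1.16% for TFEB KO and 0.506% for DKO. With shares this low, a count of 0 among 34 genes does not set the subunits apart. At an unadjusted p of 0.05, 0, 4 and 1 of the 34 subunits passed, and the share of all genes at that threshold is not given here. DESeq2 and edgeR also called 0 at the adjusted threshold. The differences of log2 fold change ran from -0.19 to 0.22 in TFE3 KO, from -0.34 to 0.37 in TFEB KO and from -0.23 to 0.42 in DKO cells, with SEs of 0.09 to 0.31. The lowest adjusted p was that of PSMB1 in TFEB KO cells (-0.34 ± 0.11, limma, adjusted p = 0.12).

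Set directly against each other in WT cells, HBSS and Torin differed in 15 of the 34 subunits. HBSS was higher for 10 and lower for 5, where 26.1% and 23.1% of all genes were called. These counts do not set the subunits apart from other genes. PSMD14 (0.79 ± 0.1), PSMA7 (0.75 ± 0.07), PSMD11 (0.62 ± 0.15) and PSMD7 (0.56 ± 0.08) were higher in HBSS than in Torin, as were PSMB3, PSMD2, PSMC2, PSMD1, PSMB2 and PSMA4 (0.3 to 0.5). Lower in HBSS were PSMD5 (-1.01 ± 0.16, the only one at least 2-fold lower, against 9.64% of all genes), PSMD4 (-0.41 ± 0.08), PSMC1 (-0.37 ± 0.1), PSMB4 (-0.24 ± 0.08) and PSMB1 (-0.21 ± 0.09). This count was sensitive to the duplicated column. It fell to 7 (4 higher and 3 lower) with that column kept as WT Torin and was 17 with it kept as WT HBSS. The share of higher calls, 10 of 15, became 10 of 18 under median-of-ratios scaling.

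The balance of the particles was described by their summed levels, with no test. In WT control the 14 core subunits summed to 4742.8 to 5480.3 and the 20 regulatory subunits to 4596.2 to 4874.8 across the libraries, a ratio of 1.06 ± 0.07 (SD, n = 3). In HBSS the core sum was 87.2% of that of WT control and the regulatory sum 69.6%, and the ratio was 1.33 ± 0.00707 (n = 2), above every other library. The difference lay in PSMA7. It made up 30.3% ± 0.473 of the core sum in WT control and 43.2% ± 0.283 in HBSS. Without PSMA7 the core sum in HBSS was 71.0% of WT control and the ratio 0.756, inside the range of 0.708 to 0.79 of the WT control libraries. In WT Torin the core sum was 72.1% and the regulatory sum 65.3% of WT control. Against their own controls, the Torin groups of the knockouts had core sums of 71.4% to 76.8% and regulatory sums of 64.4% to 66.8%. The ratio was 1.16 to 1.25 in the Torin libraries of all 4 genotypes and 0.988 to 1.15 in their control libraries, so that these ranges adjoined without overlap. Without PSMA7 the ranges pooled over the genotypes overlapped, with 0.778 to 0.872 in the Torin and 0.676 to 0.811 in the control libraries. Within a genotype they overlapped only in DKO cells (0.809 to 0.867 with Torin, 0.721 to 0.811 in control). In WT cells the ratio without PSMA7 was 0.808 ± 0.0247 with Torin (n = 2) and 0.74 ± 0.0437 in control (n = 3). With Torin the mean ratio without PSMA7 was 109% (WT), 110% (TFE3 KO), 113% (TFEB KO) and 110% (DKO) of that of the own control. With PSMA7 included it was 110%, 108%, 119% and 110%.

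**Figure D4:**
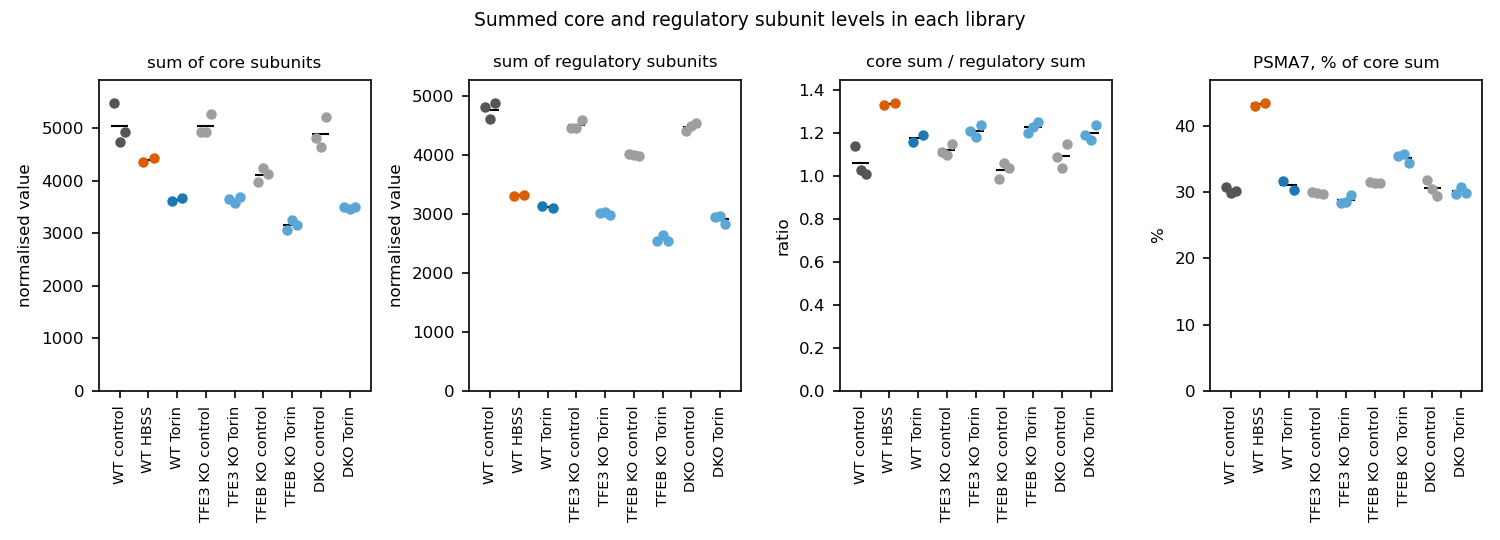
The panels give, for each library by group, the summed normalised value of the core and of the regulatory subunits, the ratio of these sums, and the share of PSMA7 in the core sum. The line is the group mean and all axes start at 0. Both sums are lower in HBSS and Torin than in the control of the same genotype, and the share of PSMA7 is 43.0% to 43.4% in the HBSS libraries and 28.4% to 35.7% in all others.

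Among the untreated knockouts, TFEB KO cells had the most subunits that differed from WT control. In TFEB KO control, 20 subunits were lower, 1 was higher and 13 were not called (median -0.29, against -0.002 over all genes), where 7.18% of all genes were called lower and 7.46% higher. The fall involved 9 of 14 core and 11 of 20 regulatory subunits. It was largest for PSMB4 (-0.51 ± 0.07, limma, adjusted p = 4.8e-07), which had 653, 568 and 605 in WT control and 397, 448 and 438 in TFEB KO control, with no overlap. PSMC3 (-0.49 ± 0.1), PSMA2 (-0.47 ± 0.1), PSMD4 (-0.46 ± 0.07) and PSMC2 (-0.45 ± 0.09) came next among those called. PSMD14 was the exception. Its values of 380, 418 and 364 in TFEB KO control all lay above the 339, 296 and 300 of WT control (0.31 ± 0.08, limma, adjusted p = 0.00524). None of these changes reached 2-fold. WT control replicate 1 had the highest core sum of the used libraries, and without it 12 subunits were lower and 1 higher. The summed core level of TFEB KO control was 81.4% and the regulatory sum 84.0% of WT control. COL1A1, a fibroblast marker, was also higher in TFEB KO control (1.32 ± 0.28) and in DKO control (1.58 ± 0.28), at low mean values of 3.04 and 3.87. LUM, the only other fibroblast marker with a row, did not move alike. It averaged 1.27 ± 0.337 in WT control, 0.864 ± 0.438 in TFEB KO control and 1.72 ± 0.15 in DKO control (SD, n = 3 each). The part of these markers in the results was not tested.

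In TFE3 KO control 2 subunits were lower, 0 were higher and 32 were not called, where 5.84% of all genes were lower and 3.57% higher. They were the lid subunit PSMD3 (-0.42 ± 0.09, limma, adjusted p = 0.000781), with 247, 241 and 228 in WT control and 179, 176 and 179 in TFE3 KO control, and the ATPase PSMC4 (-0.24 ± 0.07, limma, adjusted p = 0.019). At an unadjusted p of 0.05, 5 passed. The share of all genes at that threshold is not given here, so this count has nothing to be judged against. In DKO control 3 subunits were lower, 0 were higher and 31 were not called, where 7.49% of all genes were lower and 5.64% higher. They were PSMB1 (-0.26 ± 0.07, limma, adjusted p = 0.0108), PSMC4 (-0.24 ± 0.07) and PSMD2 (-0.19 ± 0.07). The count of DKO control was 0 in a fit of the compared libraries alone and when DKO control replicate 1 was left out. These 3 comparisons share the WT control libraries. In TFE3 KO and DKO control the counts of lower subunits were near the shares of all genes and do not set the subunits apart. The median over the subunits was -0.02 in TFE3 KO control and -0.07 in DKO control. DKO control and TFEB KO control were not tested against each other.

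**Figure D5:**
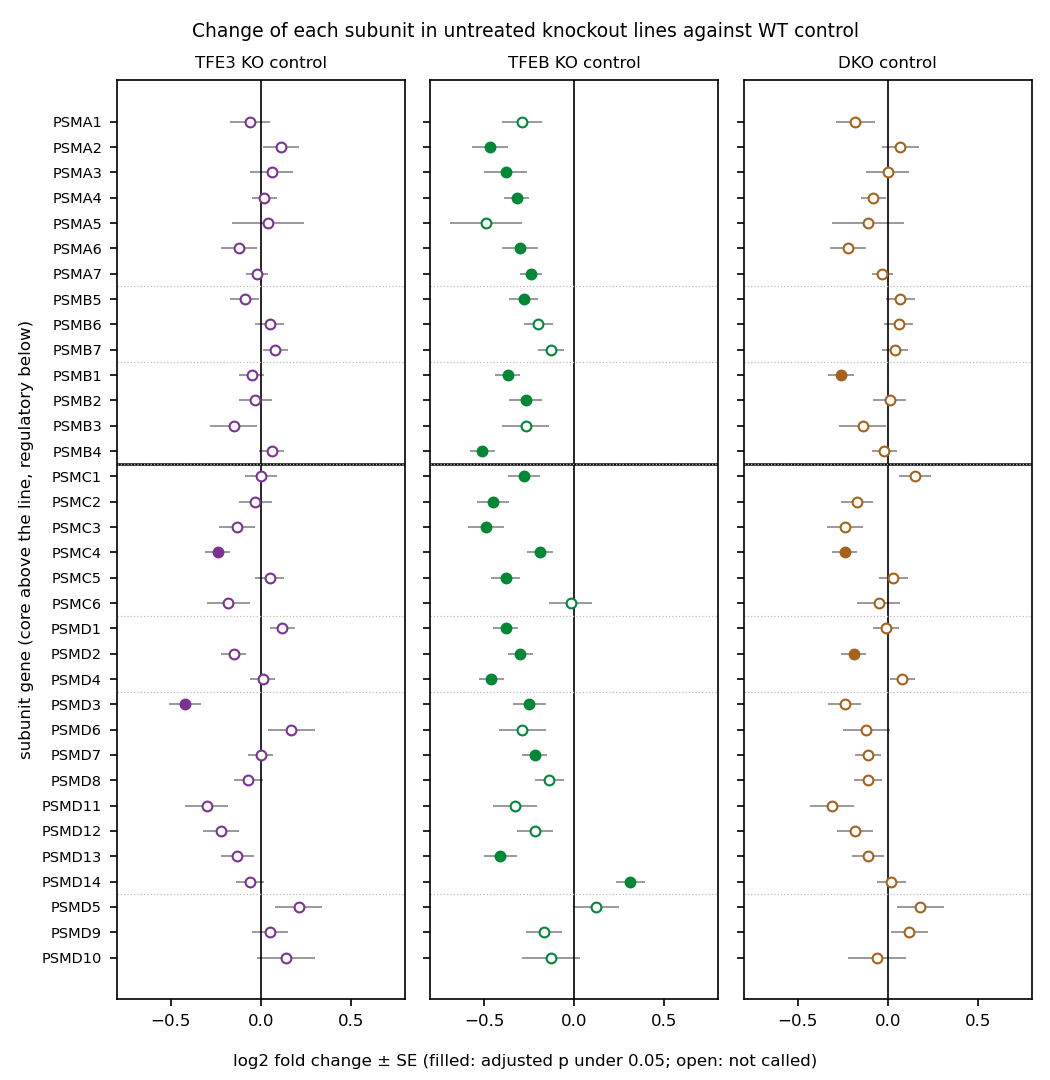
Each panel gives the log2 fold change of the 34 subunits in an untreated knockout line against WT control, with the SE as a bar and filled points for an adjusted p under 0.05. In TFEB KO control 20 filled points lie left of 0 and that of PSMD14 right of it, while TFE3 KO control has 2 and DKO control 3 filled points.

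The single knockouts were also compared with each other. TFE3 KO control was higher than TFEB KO control for 18 subunits and lower for PSMD14 (-0.37 ± 0.08), with 15 not called (median 0.23), where 14.3% of all genes were called higher and 15.6% lower. PSMA2 (0.58 ± 0.1), PSMB4 (0.57 ± 0.07) and PSMD1 (0.5 ± 0.07) differed most. These were 9 core and 9 regulatory subunits.

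Across the 25 libraries the subunits varied together, as a description over libraries that share their treatment and scaling. The median Pearson r of log2(value + 1) over the 561 pairs was 0.744, with 0.787 within the core, 0.693 within the regulatory particle and 0.739 between them. With each group's mean taken away it was 0.108, so that the shared movement was mainly between groups. The subunits least like the mean of the others were PSMD4 (r = 0.00685), PSMD5 (0.438), PSMC1 (0.452) and PSMA7 (0.653).

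Genes that build or serve the proteasome gave a mixed picture, by the fixed lists. Over all genes, 24.7% were called lower and 23.6% higher in HBSS, and 23.4% and 20.5% in WT Torin. Of 5 chaperones of core assembly, 4 fell in HBSS and 3 in WT Torin. Among them the maturation factor POMP fell by 0.56 and 0.81, PSMG3 by 0.99 and 0.77, and PSMG1 by 0.47 and 0.61 on the log2 scale. PSMG2 rose in HBSS (0.37 ± 0.15). Of 6 proteins bound to the regulatory particle, 3 fell in HBSS and 4 in WT Torin, among them the ubiquitin receptor ADRM1 (-0.67 and -0.95) and the deubiquitinases UCHL5 (-0.62 and -0.67) and USP14 (-0.69 and -0.4). Of 4 other activators and inhibitors, PSME3 fell in both (-0.65 and -0.82), while PSME4 rose in HBSS (0.28) and fell in WT Torin (-0.57), and ECPAS, listed as KIAA0368, rose in both (0.28 and 0.53). These 2 comparisons share their controls. With Torin in the knockouts, POMP fell by 0.83 (TFE3 KO), 0.61 (TFEB KO) and 0.81 (DKO), and ADRM1 by 0.99, 0.86 and 1.1 on the log2 scale. With Torin 26.0% (TFE3 KO), 21.0% (TFEB KO) and 26.2% (DKO) of all genes were called lower and 25.4%, 17.4% and 25.4% higher. Of the 5 core assembly chaperones 3 fell in each knockout, and in TFEB KO cells the other 2 rose (PSMG2, 0.37, and PSMG4, 0.45). Of the 6 bound proteins 5 fell in TFE3 KO, 4 in TFEB KO and 5 in DKO cells, while PAAF1 rose in TFE3 KO (0.48) and DKO cells (0.81). In TFEB KO control 3 of the 5 core assembly chaperones were lower than in WT control, POMP (-0.44), PSMG1 (-0.39) and PSMG4 (-0.81). Over all genes 7.18% were lower there.

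Of the 7 genes of NFE2L1 and its processing, NFE2L1 itself rose in HBSS (0.48 ± 0.11, limma, adjusted p = 0.000282), as did NFE2L2 (0.38 ± 0.1), while VCP, the segregase that helps to release NFE2L1 from the endoplasmic reticulum, fell in HBSS (-0.72 ± 0.08) and in WT Torin (-1.07 ± 0.08). With Torin VCP also fell in TFE3 KO (-0.74), TFEB KO (-1.08) and DKO cells (-0.78). The E3 ligase SYVN1 fell in WT Torin (-0.5 ± 0.15). In TFEB KO control NFE2L1 was higher (0.32 ± 0.1) and NFE2L2 lower (-0.36 ± 0.09). In WT Torin the polyubiquitin gene UBB fell (-0.25 ± 0.07) and UBA1, the ubiquitin-activating enzyme, rose (0.29 ± 0.09). Among shuttles and segregase cofactors, UBQLN1 (0.53 ± 0.09) and UBQLN4 (0.57 ± 0.24) rose in HBSS, while UFD1, listed as UFD1L (-0.81 ± 0.11), and NPLOC4 (-0.37 ± 0.12) fell. In WT Torin UFD1L (-1.06), NPLOC4 (-0.67), RAD23B (-0.51) and UBQLN1 (-0.35) fell.

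The interferon-inducible subunits, which replace the catalytic subunits in immune cells, were counted apart from the standard ones. In HBSS, PSMB10 rose (0.9 ± 0.13, limma, adjusted p = 1.51e-07), as did PSMB8 (0.61 ± 0.26, limma, adjusted p = 0.0482) and the activator PSME1 (0.64 ± 0.11). Of the 5 genes listed 3 were called higher and none lower, where 23.6% and 24.7% of all genes were. PSMB9 moved the other way without a call (-0.63), from 3.06 ± 1.05 to 1.62 ± 0.666 (SD, n = 2). In WT Torin 1 of 5 fell (PSME2, -0.48) and none rose, where 23.4% of all genes fell and 20.5% rose. PSMB8 and PSMB9 were low in WT control, at 3.52 ± 0.933 and 3.06 ± 1.05 (SD, n = 3), and higher in TFEB KO control, at 9.64 ± 1.71 and 9.79 ± 2.66 (1.24 ± 0.23 and 1.41 ± 0.25 on the log2 scale). Their libraries did not overlap. They were also higher in DKO control (0.96 and 1.1), as were PSME1 (0.53) and PSME2 (0.56). In TFE3 KO control PSMB8 was lower (-0.78 ± 0.23) and PSME1 higher (0.38 ± 0.1). With Torin PSMB9 rose from 7.58 ± 1.45 to 18.1 ± 2.5 in DKO cells (1.16 ± 0.25, limma, adjusted p = 0.000134), with no overlap, and from 3.1 ± 1.47 to 6.16 ± 1.56 in TFE3 KO cells (0.86 ± 0.25, limma, adjusted p = 0.00385).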

How the data were processed

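RNA of 27 libraries of 501mel cells was sequenced with the QuantSeq Forward 3′-end kit. Per the labels and the submitters' processing notes, the authors trimmed reads (cutadapt 2.10), checked them (FastQC 0.11.9), aligned them to hg38 (STAR 2.7.8a) and normalised the counts with edgeR; the counter, its use of strand, the annotation and any filter are not given in the sources used here. The deposited normalised signal is scaled between libraries and not by length, and all values were whole multiples of the value of 1 read (within 0.01 reads), which gave back the counts. Members and lists were chosen with earlier results of these data known. The main fit used limma 3.58.1 (trend, robust) on log2(value + 1), with 1 mean per group over 25 libraries and the 13052 genes that reached 1 in 3 or more libraries (471 left out), and Benjamini-Hochberg adjustment within each of 13 comparisons. SEs are those of the fit, and fold changes on this scale understate those of low genes. The alternatives were edgeR 4.0.16, DESeq2 1.42.0, other scalings, filters and pseudocounts, leaving out libraries, a replicate block, and the duplicated column kept. Values in every library are given for PSMB5, PSMB6, PSMB7 and PSMD14, for the highest and lowest member of each particle in HBSS and in WT Torin, and for every member called at 2-fold or more. Those of PSMB4 and PSMD3 in the knockout controls were added after their values were seen. Genes outside the 34 come from fixed lists, with values for those called, and some of their genes are not reported here. Gene positions are from GENCODE on hg38. Replicate numbers were not used to pair libraries.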

Additional observations from a re-analysis of the deposited data

Results flagged for a closer look

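The Torin response of SYVN1, an E3 ligase of the endoplasmic reticulum listed with NFE2L1, differed between genotypes by a test of the difference itself. Torin lowered it in WT cells (35.3 ± 3.01, n = 3, to 24.6 ± 1.31, n = 2, log2 fold change -0.5) and raised it in TFE3 KO cells (19.1 ± 2.48 to 26.1 ± 3, SD, n = 3 each, 0.43), a difference of 0.93 ± 0.2 (SE, limma, adjusted p = 0.00872). In untreated cells it was lower in TFE3 KO than in WT (-0.86 ± 0.13). The difference for DKO cells was 0.7 ± 0.2 (limma, adjusted p = 0.107) and that for TFEB KO cells 0.16 ± 0.2 (limma, adjusted p = 0.781). No proteasome subunit met this criterion, and few of all genes passed the test of the difference (1.06% for TFE3 KO).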

How the results depend on the processing

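Of the values of single subunits under the alternatives, 6925 kept their side of the threshold, 182 lost the call, 67 gained it, and 0 called values changed sign. Values called in neither fit are among the 6925 whether or not their sign changed. Counts of called subunits stayed within 1.5 times except as follows. In DKO control the count of 3 was 0 with only the libraries compared and 0 to 4 when single libraries were left out. In HBSS against WT Torin the count of 15 was 7 with the identical column kept as WT Torin and 7 with it under both labels (10 to 15 when single libraries were left out). Leaving out single libraries gave 1 to 2 in TFE3 KO control (1 without WT control replicate 3, TFE3 KO control replicate 1 or 2), 13 to 21 in TFEB KO control (13 without WT control replicate 1), and 0 to 1 for the Torin response of TFEB KO minus that of WT (1 without TFEB KO control replicate 3). Leaving out single libraries gave 26 to 31 in HBSS, 27 to 29 in WT Torin, 27 to 31, 24 to 28 and 28 to 29 with Torin in TFE3 KO, TFEB KO and DKO, and 14 to 20 between TFE3 KO and TFEB KO control. DKO control had 1 without WT control replicate 3 and 0 without its own replicate 1. Medians near 0 changed sign. That of the core in DKO control (-0.03) was -0.11 to 0.04 over libraries left out, with 0.04 without WT control replicate 1. That of the regulatory particle in HBSS against WT Torin (-0.03) was -0.06 to 0.05, with 0.05 without WT HBSS replicate 1, and 0.01 with the identical column kept as WT HBSS. For the Torin response of TFE3 KO minus that of WT (0.03) it was -0.01 to 0.07, with -0.01 without WT Torin replicate 3 and -0.01 with that column kept as WT Torin or under both labels. For that of DKO (-0.02) it was -0.05 to 0.01, with 0.01 without WT control replicate 2 or WT Torin replicate 3, and the core median (0.02) was -0.05 to 0.07, with -0.05 without WT control replicate 1. The causes were not tested.

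With the replicate number as a block, called subunits numbered 29 in HBSS, 29 in WT Torin, 31, 27 and 29 with Torin in TFE3 KO, TFEB KO and DKO cells, 2, 22 and 3 in their controls, 20 between TFE3 KO and TFEB KO control, 16 between HBSS and Torin, and 0 for each difference of Torin responses. Same-numbered libraries of different groups did not deviate together (correlations -0.192 to 0.161, median 0.00667), and a library correlated best with its own number in 43 of 126 pairings. Depth limits PSMD10 and PSMD5 most, and WT HBSS and WT Torin have 2 libraries each. Median-of-ratios scaling moved the median of all genes by at most 0.038 on the log2 scale.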
